A study of Mus musculus with 6 samples.

Results

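Imprinted genes are expressed mainly or only from the copy inherited from 1 parent. A set of 40 of them, among them Peg10, was followed in RNA of wild-type and IL-21isoTg mammary epithelial cells (MECs). The members were the rows of the count table whose gene symbol was on a list of imprinted mouse genes, and all 40 were found among 55487 genes. The list was drawn up with results of the genotype comparison known, so the genotype differences of its members are given as a description and are not tested as support for any pattern.

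The study compared 3 wild-type BALB/c mice with 3 IL-21isoTg BALB/c mice, all virgin females aged 10 weeks, and sequenced 1 library for each animal. IL-21isoTg mice carry a transgene for a membrane-bound form of the cytokine interleukin-21 whose expression is directed to T cells, not to the epithelium. MECs were the cells of digested glands that remained after magnetic removal of cells carrying CD45, CD31 or CD140a, which mark leukocytes, endothelium and fibroblasts. Mice were at mixed stages of the estrous cycle, and the labels do not say which of them shared a litter.

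In mammals, marks of DNA methylation set in the egg or sperm decide which parental copy of an imprinted gene is used, and neighbouring imprinted genes often share 1 control region. Paternally expressed genes as a group are known for promoting growth before birth, and maternally expressed genes for restraining it. Many are active in the embryo and placenta and decline after birth. In adult tissues several are known from stromal and progenitor cells. The counts here sum both parental copies, and all mice were of 1 inbred strain, so the parental origin of the RNA was not measured. In such bulk RNA, a change in the share of cells of a type and a change in RNA per cell cannot be told apart.

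The members lie in 17 regions on 9 chromosomes. By textbook assignment, 21 are paternally expressed, 17 are maternally expressed, and for 2, Grb10 and Gnas, the active copy depends on tissue or promoter. Some of the others are also imprinted only in some tissues, so the assigned copy may not hold in adult mammary cells. Noncoding RNAs make up 6 of the 40. The filter on low counts passed 33 members. The other 7, which were not tested, were Nap1l5, Usp29, Magel2, Mkrn3, Peg12, Igf2 and Mirg.

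Control regions of imprinted genes are often rich in CpG, the dinucleotide that carries methylation, so the bases before the start of the members were examined for CG. RefSeq start sites on GRCm38.p6 were matched by symbol for 35 of the 40 members, and Peg10, Sgce, H19, Cdkn1c and Impact had no match. In the 250 bases before the start, the median number of CG was 11 in the members and 6 in all 27025 genes with a window. At least 10 CG were found in 23 of the 35 members (65.7%), and in 40.2% of all genes. The count ran from 0 in Rian and Slc22a18 to 40 in Grb10. Both strands of CG read the same, so each site was counted once, and where a gene had several windows the one with most CG was used.

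The stretches below belong to members whose values are described in detail. They show 3 different layouts of annotated starts: one shared by a pair of genes facing away from each other, one rich in CpG and one without CG. Whether any of these stretches acts as a promoter or control region was not tested. Capitals mark CG, and each is read 5′ to 3′. The first is the whole stretch between the RefSeq starts of Peg3 and Usp29, 163 bases at chr7:6730420-6730582, written on the minus strand, which Peg3 uses. It holds 5 CG. The second is the part of the 250-base window of Plagl1 that comes before the first annotated Plagl1 exon in it, an intron of longer Plagl1 transcripts, 109 bases at chr10:13090582-13090690 on the plus strand. It holds 7 of the 19 CG of that window, and 21.6% of all genes have at least 19. The third is the window of Rian at chr12:109603695-109603944 on the plus strand, with 0 CG.
Peg3 to Usp29: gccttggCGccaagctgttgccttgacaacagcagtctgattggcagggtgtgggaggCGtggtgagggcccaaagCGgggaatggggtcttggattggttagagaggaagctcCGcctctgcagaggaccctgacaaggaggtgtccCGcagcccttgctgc
Plagl1: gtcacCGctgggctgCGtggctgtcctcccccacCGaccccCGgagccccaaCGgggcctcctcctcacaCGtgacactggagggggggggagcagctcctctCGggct
Rian: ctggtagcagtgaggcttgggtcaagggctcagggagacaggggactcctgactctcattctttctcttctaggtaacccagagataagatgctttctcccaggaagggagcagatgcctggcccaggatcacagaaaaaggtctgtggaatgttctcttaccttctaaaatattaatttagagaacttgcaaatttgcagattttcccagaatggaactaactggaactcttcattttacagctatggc

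The libraries held 15902886 to 25719244 counted reads. Levels are given as CPM, read counts scaled to a common library size by the TMM method, and 3 counts, taken as the floor of detection, correspond to 0.112 to 0.280 CPM. Il21 gave 0, 0 and 37 counts in the wild-type libraries and 795, 216 and 131 in the IL-21isoTg libraries, in the order of mice 1, 2 and 3 used throughout, so some Il21 reads were also found in wild-type mouse 3. The same mouse had more milk protein reads than the other wild-type mice, with 11565 reads of the casein gene Csn2 against 321 and 209, and 611 reads of Wap against 1 and 1. Whether RNA or reads of another library reached that of wild-type mouse 3 was not tested, so members without overlap are also given without it. Genes of the salivary gland made up between 4.89 and 40.9% of a library, most in IL-21isoTg mouse 3. Summed luminal markers such as Krt8 and Epcam were at 6258 to 7239 CPM in wild-type and 5356 to 8814 CPM in IL-21isoTg mice. Luminal epithelial markers were thus found in every mouse. The 8 fibroblast markers were also abundant, at 2048 to 3672 CPM in wild-type mice and 4628 to 5264 CPM in IL-21isoTg mice.

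Peg10, a retrotransposon-derived gene that is paternally expressed and needed for placenta formation, showed the widest separation of the genotypes among the members. It lies at chr6:4747306-4760517 on the plus strand (GRCm38, ENSMUSG00000092035), and its exons share no base with another gene. The wild-type mice had 38, 35 and 49 reads, or 1.71, 1.68 and 2.21 CPM. The IL-21isoTg mice had 219, 203 and 76 reads, or 9.11, 7.56 and 7.09 CPM. Every IL-21isoTg mouse was above every wild-type mouse, and the gap between the groups was wider than the spread within either. The mean was 1.87 ± 0.293 CPM in wild-type and 7.92 ± 1.06 CPM in IL-21isoTg mice (SD, n = 3 each), a ratio of 4.24.

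The log2 fold change of Peg10, IL-21isoTg against wild-type, was 2.08 ± 0.29 (SE). Of all 17165 genes tested, 0.414% had a log2 fold change of at least 2. The value was 2.22 without wild-type mouse 3, the one with Il21 reads, 2.04 without wild-type mouse 1 and 2.16 without IL-21isoTg mouse 3, the one richest in salivary gland genes. It was lowest without IL-21isoTg mouse 1, at 1.97. Per length, Peg10 remained a low gene, with 0.280 CPM per kb of exon in wild-type and 1.19 CPM per kb in IL-21isoTg mice, against a median of 3.58 CPM per kb over all mice in 17145 tested genes with an exon length.

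Sgce, which encodes epsilon-sarcoglycan of the dystrophin-associated complex, starts on the other strand 99 bases from the start of Peg10 and shares its imprint. The wild-type mice had 6.95, 16.1 and 11.1 CPM, and the IL-21isoTg mice 18.2, 11.7 and 13.1 CPM. The groups overlapped, and the lowest mouse was wild-type mouse 1. The log2 fold change was 0.33 ± 0.33. Set against each other within a mouse, the ratio of Peg10 to Sgce reads came to 0.247, 0.104 and 0.198 for wild-type and to 0.499, 0.649 and 0.543 for IL-21isoTg animals. The ratio of the neighbours did not overlap between the genotypes.

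**Figure D1:**
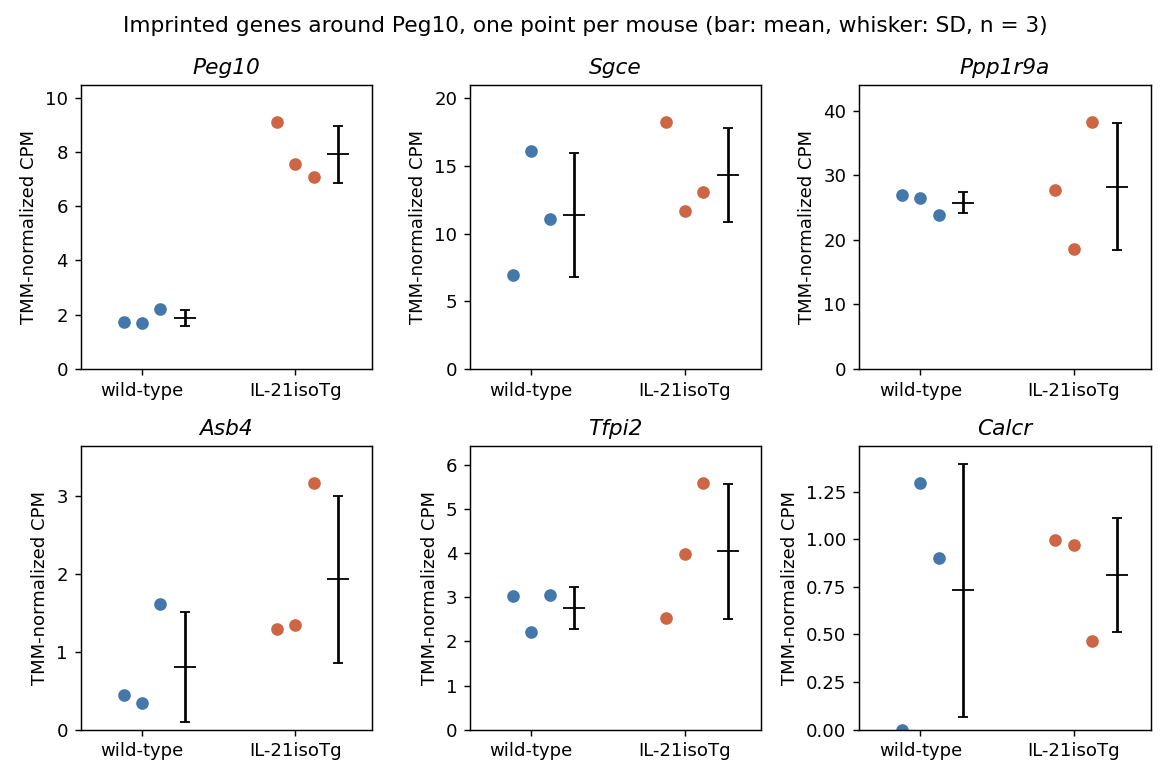
Levels of the 6 imprinted genes of the Peg10 region in TMM-normalized CPM (y axis, from 0) by genotype (x axis), with 1 point per mouse, the mean as a bar and the SD as a whisker. The IL-21isoTg mice lie at 7.09 to 9.11 CPM for Peg10, above the wild-type mice at 1.68 to 2.21 CPM, and the genotypes overlap for the other genes.

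The other members around Peg10 are known as maternally expressed in at least some tissues. Ppp1r9a, which encodes the actin-binding protein neurabin, had 26.9, 26.5 and 23.9 CPM in wild-type and 27.8, 18.6 and 38.2 CPM in IL-21isoTg mice, with a log2 fold change of 0.13 ± 0.26. Tfpi2, an inhibitor of serine proteases of the extracellular matrix, had 3.02, 2.21 and 3.06 against 2.54, 3.98 and 5.60 CPM, with a log2 fold change of 0.53 ± 0.38. For both genes the mice of the genotypes were interleaved.

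Asb4, a subunit of ubiquitin ligases, was near the floor in part of the mice. It had 10, 7 and 36 reads in wild-type and 31, 36 and 34 reads in IL-21isoTg mice, or 0.451, 0.336 and 1.62 against 1.29, 1.34 and 3.17 CPM. Wild-type mouse 3 lay among the IL-21isoTg mice, and the log2 fold change was 1.23 ± 0.71. Calcr, the calcitonin receptor, had 0, 27 and 20 reads in wild-type and 24, 26 and 5 reads in IL-21isoTg mice, with a log2 fold change of 0.18 ± 1.03. All 6 genes of the region had a log2 fold change above 0, with a median of 0.43, but only Peg10 had groups that did not overlap.

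**Figure D2:**
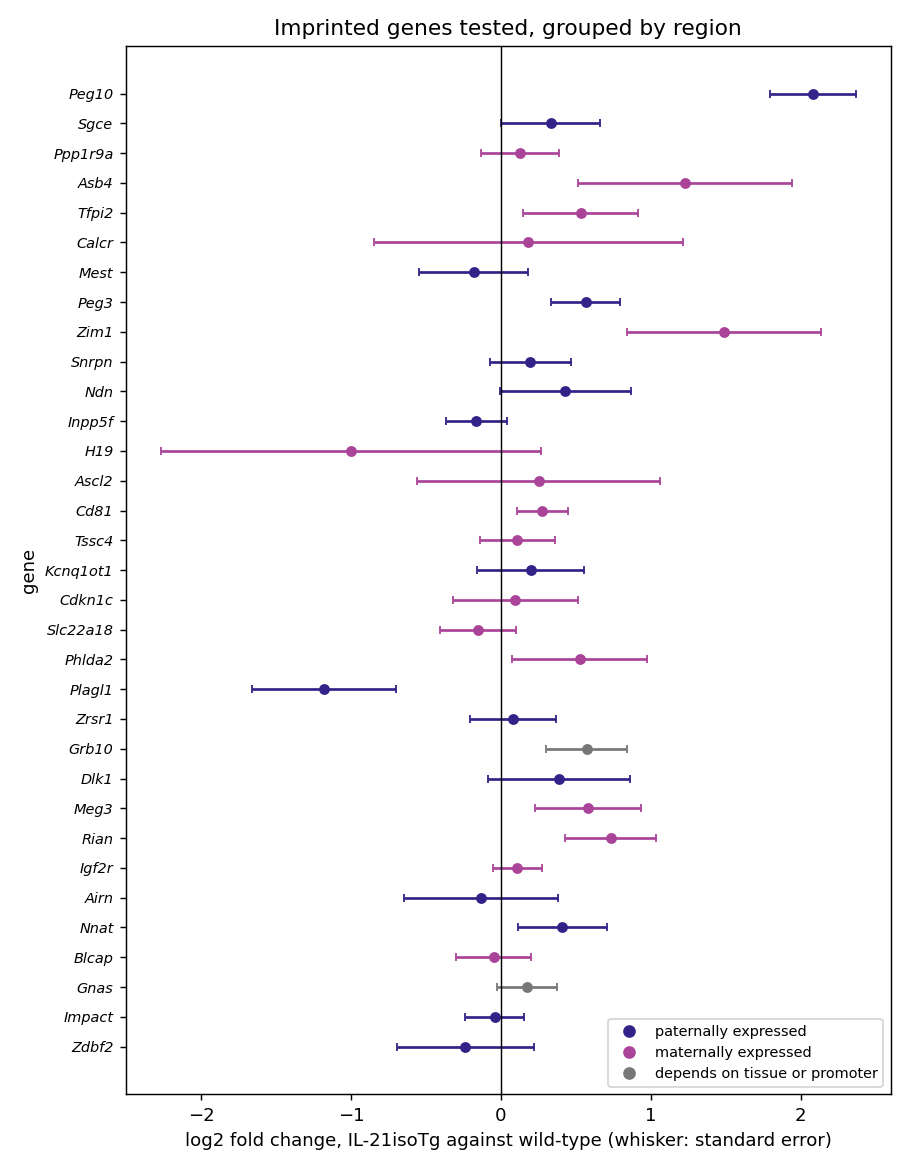
Log2 fold change of IL-21isoTg against wild-type mice (x axis) with its standard error (whisker) for the 33 imprinted genes tested (y axis). Genes are grouped by region and coloured by the parental copy assigned to them from textbook knowledge. Peg10 stands at 2.08, the others lie between -1.18 and 1.49, and the widest error is that of H19.

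Across the 33 tested members, 24 had a log2 fold change above 0 and 9 below, while 47.9% of all genes tested were above 0. The median was 0.20, or 0.19 without Peg10, against -0.02 over all genes tested, and 16 members lay within 0.25 of no change. Among the members assigned as paternally expressed, 9 of 15 tested were above 0 with a median of 0.20. Of those assigned as maternally expressed, 13 of 16 were above 0, with a median of 0.22. Groups without overlap were found for 3 members, Peg10, Peg3 and Rian, all higher in IL-21isoTg mice, where 5.54% of all genes tested were higher without overlap. For 0 members were the IL-21isoTg mice all lower, which was so for 6.54% of all genes.

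By the quasi-likelihood test of edgeR, adjusted by Benjamini-Hochberg over all 17165 genes, 0 members and 0% of all genes had an adjusted p under 0.05. An unadjusted p under 0.05 was found for 4 members, Peg10, Peg3, Rian and Plagl1, and for 5.82% of all genes. DESeq2 called 1 member, Peg10, and 0.481% of the 16014 genes to which it gave an adjusted p. By edgeR's quasi-likelihood test, the adjusted p of Peg10 was 0.214, and that of the 32 other tested members was between 0.809 and 0.979. The Wald test of DESeq2 gave Peg10 an adjusted p of 1.5e-06, so the 2 methods differed widely for this gene. Since the members were chosen with this comparison known, these counts are set beside the background, and nothing further is read from them or from the p-values.

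Peg3, a paternally expressed zinc finger protein known for effects on growth and maternal behaviour, lies at chr7:6703892-6730431 on the minus strand and is the head of the CG-containing stretch printed first. It had 327, 421 and 543 reads in wild-type and 829, 726 and 283 reads in IL-21isoTg mice. Scaled to depth, these were 14.8, 20.2 and 24.4 CPM against 34.5, 27.0 and 26.4 CPM. The groups did not overlap, but the highest wild-type mouse and the lowest IL-21isoTg mouse were close. The mean was 19.8 ± 4.86 against 29.3 ± 4.49 CPM (SD, n = 3 each), a ratio of 1.48, and the log2 fold change was 0.57 ± 0.23, or 0.74 without wild-type mouse 3.

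Usp29, which shares the start region of Peg3 and runs the opposite way, was essentially not detected, with 0, 0 and 2 reads in wild-type and 3, 1 and 0 in IL-21isoTg mice. Of this head-to-head pair, Usp29 was thus at or under the floor of 3 counts in every mouse. Zim1, a maternally expressed zinc finger gene on the far side of Peg3, had 8, 25 and 14 reads in wild-type and 55, 24 and 33 in IL-21isoTg mice. Its log2 fold change of 1.49 ± 0.65 was the highest after Peg10, yet IL-21isoTg mouse 2 at 0.893 CPM was below wild-type mouse 2 at 1.20 CPM.

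Rian is a maternally expressed noncoding RNA that hosts small nucleolar RNAs, in the Dlk1 to Meg3 region of chromosome 12. It lies at chr12:109603940-109661716 on the plus strand, behind the CG-free window shown above. The wild-type mice had 7.89, 13.8 and 13.4 CPM from 175, 288 and 299 reads, and the IL-21isoTg mice 17.1, 15 and 26.6 CPM from 411, 403 and 285 reads. The means were 11.7 ± 3.33 and 19.6 ± 6.17 CPM (SD, n = 3 each), a ratio of 1.67, and the log2 fold change was 0.73 ± 0.31. Without IL-21isoTg mouse 3 it was 0.46, and without wild-type mouse 3 it was 0.84.

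The other members of the region were less clearly separated. Meg3, the noncoding RNA at the head of the maternal transcripts, had 10.1, 16.4 and 14.8 CPM in wild-type and 24.7, 10.9 and 26.5 CPM in IL-21isoTg mice, and IL-21isoTg mouse 2 fell within the wild-type range. Its log2 fold change was 0.58 ± 0.35. Dlk1, a paternally expressed membrane protein of the Notch ligand family known as a preadipocyte marker, had 0.767, 2.16 and 1.53 against 2.04, 1.75 and 2.05 CPM, with a log2 fold change of 0.39 ± 0.47. Mirg, a host RNA of microRNAs, had 2 to 14 reads per mouse and was not tested.

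**Figure D3:**
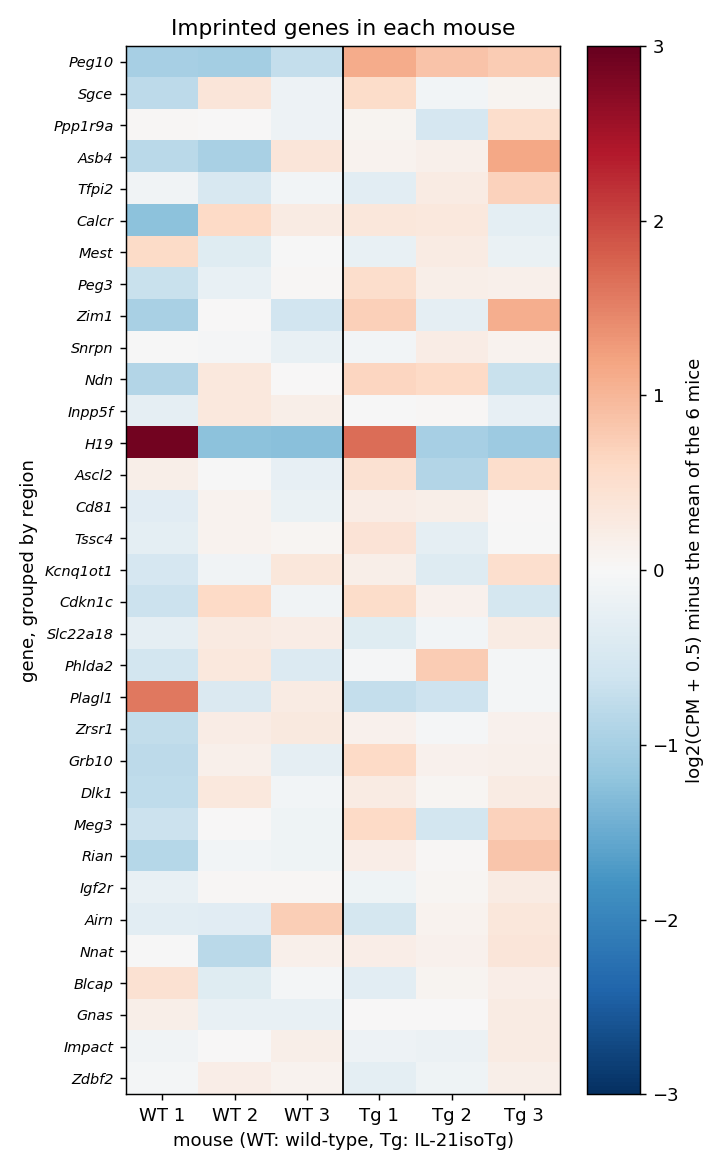
Level of each tested imprinted gene (y axis, grouped by region) in each of the 6 mice (x axis) as log2(CPM + 0.5) minus the mean of the 6 mice (colour). Wild-type mouse 1 stands out by its high H19 and Plagl1, and it is the lowest mouse for 17 of the 33 genes.

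Within the wild-type group, mouse 1 stood apart for several members. It was the lowest of the 6 mice for 17 of the 33 tested members, while it was the lowest for 24.2% of all genes tested. IL-21isoTg mouse 3 was the highest for 12 members, against 21.6% of all genes, and the lowest for 0 members, against 25.2% of all genes. Without wild-type mouse 1, the median log2 fold change of the members was 0.18.

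For a pair of members the same mouse was far above the others. H19, a maternally expressed noncoding RNA known from fetal tissues and muscle, lies at chr7:142575529-142578143 on the minus strand. It had 1069, 48 and 50 reads in wild-type and 497, 75 and 28 in IL-21isoTg mice, or 48.2, 2.31 and 2.25 against 20.7, 2.79 and 2.61 CPM. Thus 1 mouse of each genotype had high H19, the highest wild-type value was 21.4 times the lowest, and the log2 fold change of -1.0 ± 1.27 turned to 1.97 without wild-type mouse 1. The 5 skeletal muscle markers summed to 9.34 CPM in wild-type mouse 1 but to 2.41 CPM in IL-21isoTg mouse 1, the other mouse with high H19. The mice with low H19 had 1.23 to 2.71 CPM. Whether these markers are linked to H19 was not tested.

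Plagl1, a paternally expressed zinc finger factor that regulates other imprinted genes, lies at chr10:13060504-13131694 on the plus strand. It had 82.6, 20.3 and 32.6 CPM in wild-type and 16.5, 17.6 and 26.0 CPM in IL-21isoTg mice. The mean was 45.2 ± 33.0 against 20.0 ± 5.22 CPM (SD, n = 3 each), and the log2 fold change was -1.18 ± 0.48, the lowest of the members. The groups overlapped, since wild-type mouse 2 lay between IL-21isoTg mice 2 and 3, and without wild-type mouse 1 the log2 fold change was -0.39.

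Igf2, the fetal growth factor gene that shares its control region with H19, had 0, 9 and 0 reads in wild-type and 21, 1 and 0 in IL-21isoTg mice. Of its 5723 exon bases, 3596 are shared on the same strand with the annotated gene Gm49394, which had 0 to 4 reads, and reads in shared bases may have been left out of both counts. Its low count is therefore uncertain.

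In the Kcnq1ot1 region of chromosome 7, all 7 members were tested, and all had overlapping groups. Kcnq1ot1 is the paternally expressed noncoding RNA that silences its neighbours on that copy, and it had 3.88, 5.33 and 7.33 CPM in wild-type and 6.57, 4.24 and 8.30 CPM in IL-21isoTg mice, with a log2 fold change of 0.20 ± 0.36. Cdkn1c, which encodes the cell cycle inhibitor p57, had 4.01, 10.1 and 6.07 against 9.77, 7.26 and 4.38 CPM, with a log2 fold change of 0.10 ± 0.42. Phlda2, a growth restraint of the placenta, had 1.58, 3.31 and 1.80 against 2.495, 4.65 and 2.42 CPM, and its log2 fold change was 0.53 ± 0.45. In none of these were the genotypes apart, and the range within each genotype was wider than the difference of the means.

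Cd81, a tetraspanin of the cell surface, was with Gnas among the most abundant members per length, at 53.8 CPM per kb over all mice. Its wild-type mice had 121, 165 and 134 CPM and its IL-21isoTg mice 180, 174 and 156 CPM, so that only wild-type mouse 2 overlapped with them, and the log2 fold change was 0.28 ± 0.17. Slc22a18, an organic cation transporter, had 9.25, 13.5 and 13.1 against 8.52, 10.5 and 13.3 CPM, with a log2 fold change of -0.15 ± 0.26. Tssc4, a splicing-related protein, was at 0.11 ± 0.25. Ascl2, a transcription factor of trophoblast and intestinal stem cells, had 3 to 25 reads per mouse and a log2 fold change of 0.25 ± 0.81, too few reads to place it.

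**Figure D4:**
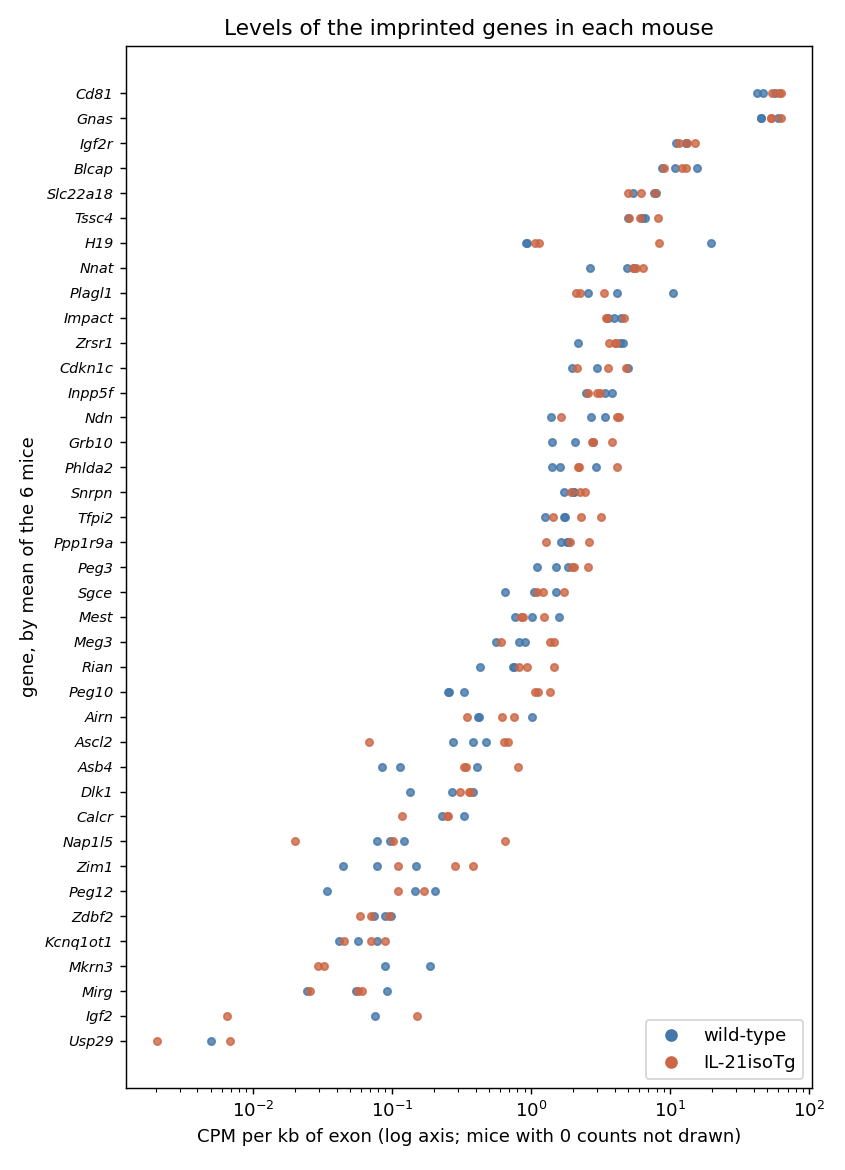
Level of each imprinted gene in CPM per kb of exon (x axis, log scale) in each mouse (1 point per mouse, coloured by genotype), ordered by the mean of the 6 mice (y axis). Cd81 and Gnas lead at 53.8 and 53.3 CPM per kb, and mice with 0 counts are not drawn.

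Compared per length, the members spanned a wide range of levels. Their median was 2.07 CPM per kb among the 33 tested, and 11 were above the median of all tested genes. Cd81 and Gnas had nearly the same mean, 53.8 and 53.3 CPM per kb, and their order was not the same in the genotypes, with Gnas at 50.1 and Cd81 at 48.6 CPM per kb in wild-type and 56.6 and 58.9 in IL-21isoTg mice. They were followed by Igf2r at 12.8, Blcap at 11.6 and Slc22a18 at 6.69 CPM per kb. The lowest of those tested were Kcnq1ot1, annotated as a single exon of 93092 bases, at 0.0638 and Zdbf2 at 0.0813 CPM per kb.

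Gnas, which encodes the stimulatory G protein alpha subunit among other products, had 666, 505 and 508 CPM in wild-type and 598, 597 and 703 CPM in IL-21isoTg mice. The means were 560 ± 92.2 and 633 ± 61.1 CPM (SD, n = 3 each), with overlap and a log2 fold change of 0.18 ± 0.20. The antisense gene Gm20721 shares 1469 exon bases with Gnas and had 92.0 to 94.4% as many counts in every mouse. How strand was handled in counting is not given in the sources used here, so reads of the pair cannot be told apart. Likewise Gm44732, antisense to Cdkn1c over 625 bases, had 44.9 to 59.6% as many counts as Cdkn1c. Kcnq1ot1 shares 121 exon bases with Kcnq1 on the opposite strand, so the same doubt applies to its count.

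Igf2r, the receptor that takes up and degrades IGF2, was steady over the mice. It had 102, 120.5 and 121 CPM in wild-type and 108, 123 and 139.9 CPM in IL-21isoTg mice, with a log2 fold change of 0.11 ± 0.16. Its antisense transcript Airn, the noncoding RNA that silences Igf2r on the paternal copy, had 1.53, 1.49 and 3.69 against 1.25, 2.23 and 2.71 CPM, with a log2 fold change of -0.13 ± 0.51. Both had reads in every mouse, and the genotypes overlapped for both. Part of Airn lies within the Igf2r gene on the opposite strand, so the doubt about strand applies to Airn as well.

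Nnat, a proteolipid that lies within an intron of Blcap and is expressed from the paternal copy, had 9.02, 4.90 and 10.1 CPM in wild-type and 10.3, 9.90 and 11.7 CPM in IL-21isoTg mice, with a log2 fold change of 0.41 ± 0.30. Blcap had 47.9, 26.7 and 33.0 against 27.8, 37.0 and 39.5 CPM, with a log2 fold change of -0.05 ± 0.25. Wild-type mouse 2 was the lowest mouse for both, and wild-type mouse 1 the highest for Blcap.

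Grb10, an adaptor protein that dampens insulin and IGF signalling, had 12.99, 25.4 and 18.7 CPM in wild-type and 34.7, 24.8 and 25.4 CPM in IL-21isoTg mice. Wild-type mouse 2 lay within the range of the IL-21isoTg mice, and the log2 fold change was 0.57 ± 0.27. Mest, a paternally expressed hydrolase-like protein known from mesoderm and adipose tissue, had 6.27, 3.03 and 4.004 against 3.37, 4.88 and 3.45 CPM, with a log2 fold change of -0.18 ± 0.36. Mest shares 912 exon bases with the more abundant Copg2 on the opposite strand, so its count carries the same doubt about strand as that of Gnas. Exons of 22 of the 40 members share no base with another gene.

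In the Snrpn to Ndn region, known from the human Prader-Willi syndrome, 2 of 5 members were tested. Snrpn, a core protein of splicing particles, had 4.42, 4.32 and 3.73 CPM in wild-type and 4.16, 5.29 and 4.85 CPM in IL-21isoTg mice, with a log2 fold change of 0.20 ± 0.27. It shares exon bases on the same strand with Snurf and Gm38393, so its count is uncertain. Gm38393 had 35.7, 54.4 and 92.8% as many reads as Snrpn in wild-type and 25, 18.3 and 11.5% in IL-21isoTg mice, without overlap, and the part of this shift in the Snrpn difference was not tested. Ndn, a MAGE family growth suppressor, had 5.19, 12.5 and 10.0 against 15.8, 15.3 and 6.06 CPM, with a log2 fold change of 0.43 ± 0.43. Each genotype thus held 1 mouse with low Ndn. Magel2 had 0 reads in every mouse, Mkrn3 0 to 10 and Peg12 0 to 12.

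The remaining members were each the only one of the 40 in their region. Inpp5f, an inositol phosphatase, had a log2 fold change of -0.16 ± 0.20. Zrsr1, a retrogene with a near copy, Zrsr2, which could share reads with it, was at 0.08 ± 0.29. It also shares 412 exon bases with Commd1 on the opposite strand, which had 222, 202 and 289 reads in wild-type and 335, 260 and 106 in IL-21isoTg mice, so the doubt about strand applies to Zrsr1 as well. Impact, a regulator of the amino acid starvation response, had 18.5, 20.2 and 22.8 CPM in wild-type and 18.0, 17.8 and 24.1 CPM in IL-21isoTg mice and a log2 fold change of -0.04 ± 0.20. Zdbf2, a zinc finger gene known from growth and feeding after birth, was at -0.24 ± 0.46. Nap1l5, a nucleosome assembly protein relative, had 29 reads in IL-21isoTg mouse 1 and 1 to 5 reads in the other mice.

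Several members are known from stromal cells, so they were set beside markers of the other cells that the preparation could hold. The summed fibroblast markers were at 2048, 3672 and 3343 CPM in wild-type and 5264, 4628 and 4643 CPM in IL-21isoTg mice, without overlap (exact permutation test over mice, two-sided, p = 0.1, the smallest that 3 against 3 allows). Of the 8 markers, 5 were higher without overlap, the collagen genes Col1a1, Col1a2, Col3a1 and Col6a3, and Lum. Dcn, Pdgfra and Dpt overlapped. A positive log2 fold change was found for 7, with a median of 0.66 over the 8, while Dcn was at -0.27. By edgeR's quasi-likelihood test, 0 had an adjusted p under 0.05. Pdgfra, the gene of the CD140a used for removal, was detected in every mouse, at 15.8, 40.2 and 48.5 CPM in wild-type and 60.4, 50.5 and 43.7 CPM in IL-21isoTg mice.

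Divided by the summed fibroblast markers of the same mouse, Peg10 had 0.837, 0.458 and 0.660 CPM per 1000 CPM in wild-type and 1.73, 1.63 and 1.53 in IL-21isoTg mice, still without overlap. Its groups were also apart when it was divided by the luminal, basal, pericyte or endothelial markers. For the endothelial markers they were barely apart, with 32.8 in wild-type mouse 3 and 35.1 in IL-21isoTg mouse 1. The groups of Peg10 overlapped when it was divided by the adipocyte markers. Peg3 had 7.20, 5.51 and 7.31 CPM per 1000 CPM of fibroblast markers in wild-type and 6.55, 5.84 and 5.69 in IL-21isoTg mice. Rian had 3.85, 3.77 and 4.02 against 3.25, 3.24 and 5.73. On this scale Peg3 and Rian overlapped between the genotypes, as did Sgce, Grb10, Meg3 and Ndn. Before division, the highest wild-type and the lowest IL-21isoTg mouse were at 2.21 and 7.09 CPM for Peg10. They were at 24.4 and 26.4 CPM for Peg3 and at 13.8 and 15 CPM for Rian. The gap before division was wide for Peg10 and narrow for Peg3 and Rian. Peg3 and Rian also overlapped when divided by the luminal, basal, pericyte, endothelial or adipocyte markers. The ratios therefore cannot show the part of fibroblasts in the levels of the members. That part was not tested.

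**Figure D5:**
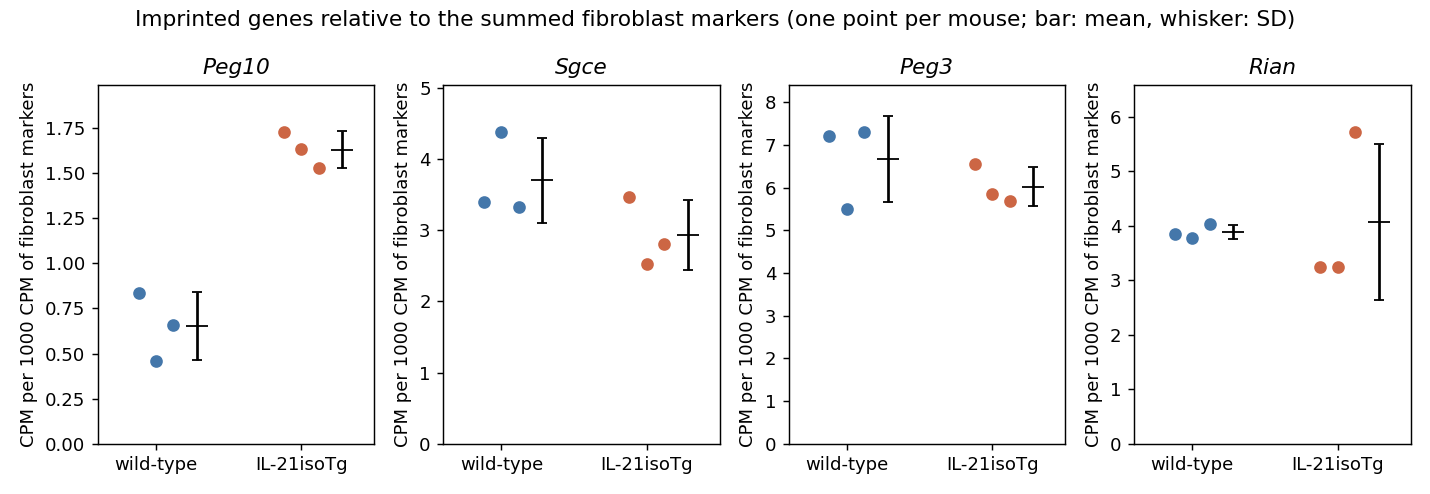
Imprinted genes as CPM per 1000 CPM of the summed fibroblast markers (y axis) by genotype (x axis), with 1 point per mouse, the mean as a bar and the SD as a whisker. Peg10 lies at 1.53 to 1.73 in IL-21isoTg mice and at 0.458 to 0.837 in wild-type mice, while the genotypes overlap for the other genes shown.

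The other marker lists moved as follows. Pericyte markers summed to 187 to 431 CPM in wild-type and 208 to 378 CPM in IL-21isoTg mice, endothelial markers to 58.2 to 152 against 98.6 to 260 CPM, leukocyte markers to 19.2 to 34.4 against 25.9 to 34.0 CPM, and adipocyte markers to 25.4 to 67.8 against 30.1 to 192 CPM, with the fat cell hormone gene Adipoq at 0 reads in wild-type mouse 1 and 207 in IL-21isoTg mouse 1. Basal markers were at 1651 to 2024 against 1888 to 3152 CPM, and Schwann cell markers at 340 to 353 against 348 to 425 CPM. All of these overlapped between the genotypes. The 8 milk protein genes were at 538, 523 and 1733 CPM in wild-type mice against 8818 to 20366 CPM, without overlap in any of the 8, with a median log2 fold change of 4.08 and 0 at an adjusted p under 0.05. The relation of Peg10 to milk protein expression was not tested, since both differ between the same 3 and 3 mice.

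For comparison, a second list of 40 other genes was followed, of which 39 were found and 30 were tested. The list mixed imprinted genes with genes that only lie in the same imprinted regions, and it held Dcn, also a fibroblast marker. In that list, 14 had a log2 fold change above 0, the median was -0.04 and the range was -0.47 to 1.06, with 0 genes at an adjusted p under 0.05. H13, a signal peptide peptidase, was higher in every IL-21isoTg mouse, with 146, 135 and 141 CPM in wild-type and 188, 157 and 229 CPM in IL-21isoTg mice. Ube3a, the ubiquitin ligase of the Angelman syndrome, was lower in every IL-21isoTg mouse, with 62.6, 70.2 and 63.8 against 47.4, 57.4 and 55.0 CPM, and Nap1l4, a nucleosome assembly protein, was lower with a log2 fold change of -0.15 ± 0.14. These were the only tested genes of the second list without overlap, 1 higher and 2 lower, where 5.54% of all genes tested were higher and 6.54% lower, and the lists were not tested against each other.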

How the data were processed

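MECs of 3 wild-type and 3 IL-21isoTg mice were profiled from poly(A)-selected, directional libraries with 150-bp paired-end reads, 1 library per mouse. The authors deposited raw counts of reads per gene, without normalization. The submitters' processing notes name FastQC 0.11.7, Trimmomatic 0.38, HISAT2 2.1.0, SAMtools 1.9, featureCounts 1.6.3, DESeq2 1.24.0 and the build mm10. The annotation and strand setting of the counting are not given in the sources used here. Deposited normalized counts and the authors' comparison (fold changes, p-values) were not used. The members, gene lists and tests were chosen with earlier results of these data known.

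Counts were filtered with filterByExpr (minimum count 10, minimum total 15), scaled by TMM and compared with edgeR 4.0.16 (robust quasi-likelihood, genotype only, R 4.3.3), with Benjamini-Hochberg adjustment over 17165 genes and a threshold of 0.05. The SE of a log2 fold change comes from the same fit. Alternatives used DESeq2 1.42.0, limma 3.58.1, other scalings and filters, a replicate block and each mouse left out in turn. Exon lengths and overlaps came from GENCODE M21 (GRCm38), which holds 55227 of the 55487 identifiers. The test was checked on simulated counts. Floors cover counting error only, and p-values cover the spread between mice, whose litters are not stated. Genes described in full were Peg10 and its region, members whose groups do not overlap, the 5 highest per kb and the leading gene of each region. Values of the other members, of Pdgfra and Adipoq, and of the 3 named genes of the second list were chosen for the text after they were seen. Figures were drawn with Python 3.11.15 and matplotlib 3.10.9.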

Additional observations from a re-analysis of the deposited data

How the results depend on the processing

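The log2 fold change of Peg10 was 1.97 to 2.22 with a mouse left out and 2.07 to 2.11 under the other alternatives, and the median of the tested members was 0.17 to 0.26 and 0.18 to 0.22. At an adjusted p under 0.05, DESeq2 called 1 member, with 67 genes higher and 10 lower, edgeR's likelihood ratio test called 1 member, with 52 genes higher and 13 lower, and edgeR's quasi-likelihood test without a filter called 1 member and 14 genes higher. In each the member was Peg10. With a mouse left out, 0 to 6 genes were called higher, the 6 without wild-type replicate 3. The causes were not tested. With a mouse left out, Peg3 was at 0.41 to 0.74, Rian at 0.46 to 0.89, Plagl1 at -1.53 to -0.39 (the latter without wild-type mouse 1) and H19 at -2.70 to 1.97 (the latter without wild-type mouse 1). Of 476 values of single members under 15 alternatives, 6 moved by at least 1 SD, and 12 members changed sign under some alternative.

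With a mouse left out, 5 to 9 members were higher without overlap, the 9 without wild-type mouse 2. In the other direction, Plagl1, Impact and Zdbf2 were lower without IL-21isoTg mouse 3, Inpp5f and Zrsr1 without wild-type mouse 1, and Plagl1 without wild-type mouse 2. The share of all genes without overlap was not computed with a mouse left out, where groups separate more easily. These counts are therefore not read as a result about the members. Groups apart in all 6 mice stay apart by construction. Mice with the same number did not deviate together (correlations of deviations from the group means of -0.224, 0.0677 and -0.0619), so the numbers were not taken as pairs. With the number as a block, 0 members and 0 genes were called, and the log2 fold change of Peg10 was 2.08 and the median of the members 0.19. Depth limits the 7 members that were not tested, and Ascl2, Calcr, Asb4, Dlk1, Zdbf2 and Zim1, whose highest mouse had 25 to 55 reads.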
